A study of Rattus norvegicus with 56 samples.

Results

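The comparison of low-frequency stimulation with sham at the last time point used 7 arrays out of 56, namely the 4 arrays titled 1Hz_48H and the 3 arrays titled SHAM_48H. Each array held total RNA from a primary culture of hippocampal neurons prepared from Sprague-Dawley rat embryos at age E18, harvested 48 h after stimulation had ended. Stimulated dishes sat centred on an inverted magnetic coil that delivered repetitive transcranial magnetic stimulation (rTMS) at 1 Hz, while sham dishes went through the same incubator with the coil held at a distance. Further cultures of the study received intermittent theta burst stimulation (iTBS), or were collected at earlier times. Both groups came from the same embryonic age and strain, and as dissociated cultures they hold no intact hippocampal circuit. The labels do not say whether replicates came from separate cultures or litters. The p-values therefore measure the spread between arrays of a group, pooled over all fitted groups of the series, which may be partly technical.

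rTMS induces electric currents in conductive tissue by a rapidly changing magnetic field. Trains at low frequency are generally used to lower cortical excitability, whereas intermittent theta burst patterns are used to raise it. Neuronal activity switches on immediate early genes such as Fos, Arc and Egr1 within minutes, and slower changes in receptors, scaffold proteins and vesicle proteins follow in the forms of plasticity that last for days. A harvest 48 h after the stimulus therefore addresses the late transcript levels, long after a transient immediate early response would have decayed.

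All levels below are log2 processed signals of single probes, standardised within each array and multiplied by the median standard deviation over arrays (4.06), so that a level of 0 marks the array's own average and differences read as log2 changes. A level can be compared between arrays for the same probe, not between probes. The submitters' descriptions give each sample a number, in which the order of times and treatments starts over. The numbers were divided at those points into runs A, B and C, with the numbers that carry a D prefix as run D. This division was inferred from the numbering, and the labels do not say what the numbers stand for. Sham replicates 1, 2 and 3 belonged to runs A, C and D. The 1 Hz replicates 1, 2, 3 and 4 belonged to runs A, B, C and D, so that 3 runs held 1 array of each group and run B held no sham array at 48 h.

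One array stood apart before any comparison was made. The 75th percentile of the processed signal was 18416 scanner units on 1 Hz replicate 1, against 4382, 7364 and 5430 on the sham arrays and 3865, 5970 and 8156 on 1 Hz replicates 2, 3 and 4. It was the brightest of the 55 arrays that had a well-placed grid, the next reaching 9939. Its local background was also the highest at 52.1, with 37.9 the next highest. Correlations of its levels with the other arrays at 48 h, iTBS arrays included, ran from 0.937 to 0.968, whereas those among the remaining arrays ran from 0.949 to 0.991. Sham replicate 1 and the iTBS array of the same run A correlated by 0.980, and sham replicate 1 and 1 Hz replicate 1 by 0.950. The share of spots well above background on 1 Hz replicate 1 (71.6%) lay within the range of the other sham and 1 Hz arrays at 48 h (71.1% to 81.1%). Values that moved strongly without this array are given without it as well, and the part of its brightness in any result was not tested.

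**Figure D1:**
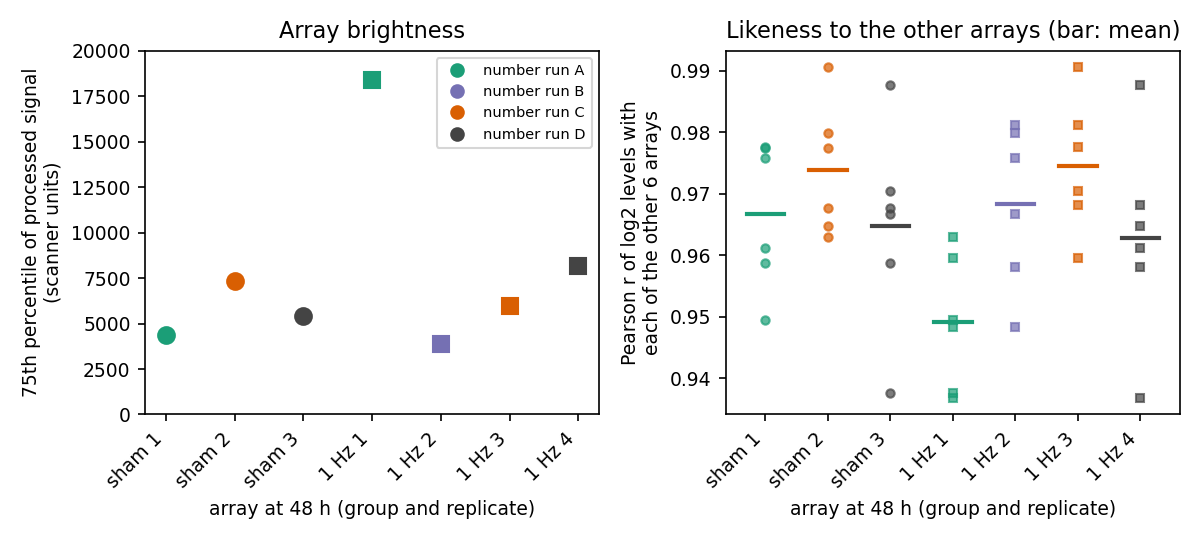
Brightness and likeness of the 7 arrays at 48 h. The left panel plots the 75th percentile of the processed signal in scanner units for each array, and the right panel plots the Pearson correlation of each array's log2 levels with the other 6, with a bar at the mean; circles are sham, squares are 1 Hz, and colours mark the number runs. 1 Hz replicate 1 lies at 18416 units, while the other 6 arrays lie between 3865 and 8156.

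The markers of the labelled cell type were present. All 8 neuronal markers, among them Map2 (a dendritic microtubule protein) and Rbfox3 (the nuclear antigen NeuN), were well above background on all 7 arrays, as were all 6 markers of excitatory neurons and all 8 of interneurons. Glial markers were detected too. Well above background on all 7 arrays were 10 of 10 astrocyte, 5 of 5 oligodendrocyte progenitor and 8 of 8 myelinating cell markers. The same held for 4 of 4 choroid plexus markers. It held for only 4 of 8 microglial markers and 8 of 11 endothelial, mural and fibroblast markers. Over all named genes it held for 11371 of 13888, so these counts do not by themselves show which cell types were present. In such bulk RNA, fewer cells of a type and less RNA per cell cannot be told apart.

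Glial levels differed widely between runs. Sox10, a transcription factor of the oligodendrocyte lineage, lay at 4.10, 6.36 and 0.43 in sham replicates 1, 2 and 3 and at 5.64, 5.94, 6.05 and 0.55 in 1 Hz replicates 1 to 4. Both arrays of run D were therefore low, whatever the treatment. Mbp, the myelin basic protein gene, lay at 4.62, 7.68 and 2.37 in the sham arrays and at 4.65, 5.77, 7.31 and 2.40 in the 1 Hz arrays, and its differences within runs A, C and D were only 0.03, −0.37 and 0.03. Col1a1, a fibrillar collagen of fibroblasts, ran the other way, at 0.96, 3.52 and 7.43 under sham and 0.54, 0.92, 2.86 and 6.87 under 1 Hz. Gfap, the intermediate filament of astrocytes, lay at 3.70, 4.26 and 6.84 under sham and 2.89, 4.85, 4.40 and 6.44 under 1 Hz. The ranges of the groups overlapped for all 4 genes, and the mean differences were 0.91 ± 1.70 (SE) for Sox10, 0.14 ± 2.34 for Mbp, −1.17 ± 2.06 for Col1a1 and −0.29 ± 0.96 for Gfap, each with n = 3 sham and 4 1 Hz arrays and an adjusted p of 1.00 by limma. In the same order, the differences were 0.55, 0.27, −0.42 and 0.30 without 1 Hz replicate 1.

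Proliferation markers gave a similar picture. All 8 genes of dividing cells had a higher mean in the 1 Hz group, with a median difference of 0.36, but without 1 Hz replicate 1 only 1 of 8 did and the median was −0.06. Ccnb1, the mitotic cyclin, lay at 3.06, 2.45 and 0.29 in the sham arrays and at 4.68, 2.89, 2.17 and 0.57 in the 1 Hz arrays. The highest value was that of 1 Hz replicate 1, and within runs the differences were 1.62 in A, −0.28 in C and 0.28 in D.

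**Figure D2:**
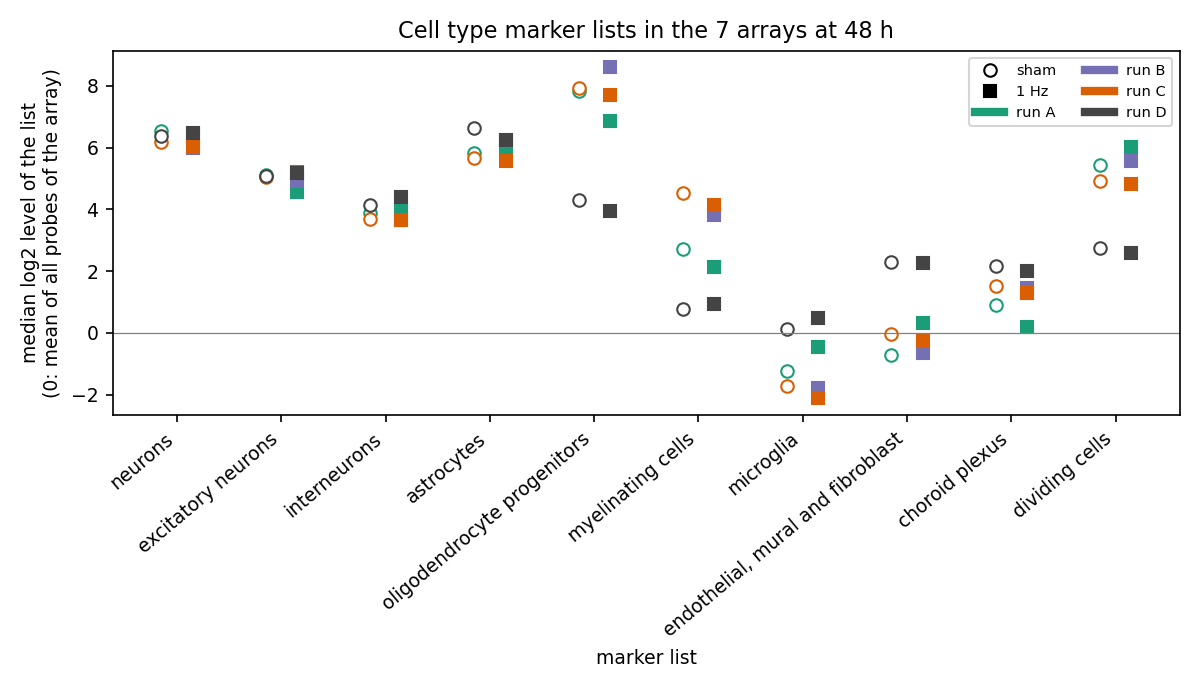
Cell type marker lists in the 7 arrays. The vertical axis is the median log2 level over the markers of a list, 0 being the mean of all probes of the array; open circles are sham, filled squares are 1 Hz, and colours mark the number runs. For oligodendrocyte progenitors the run D arrays lie at 4.31 (sham) and 3.94 (1 Hz), while all arrays of the other runs lie at 6.87 or above.

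No transcript passed the test between 1 Hz and sham at 48 h. Of 35694 probes tested with limma, 0 (0.0%) reached an adjusted p under 0.05, and the lowest adjusted p was 1.00. At an unadjusted p under 0.05 there were 524 probes (1.47%), 144 of them higher (0.403%) and 380 lower (1.06%) after 1 Hz. One reading of the selection criteria in the study's methods also left 0 probes, with 740 at an unadjusted p under 0.05 in the pairwise step, 36 under a false discovery rate of 0.30 and 4 past all criteria but that rate. The methods leave details of these steps unstated, so this 0 is the count of that reading and not of the authors' procedure. The differences themselves were mostly small, since 85.6% of the probes differed by less than 0.5 on the log2 scale. The median standard error of a difference was 0.37, which gives an unadjusted 95% interval of about ±0.75 for the typical probe. This holds for this fit, which does not use the runs. A call, adjusted over 35694 probes, takes a larger difference than that interval. Late changes of that size or smaller could therefore go uncalled, and Hcn2, at −1.004, was not called. The spread was wider among the 1 Hz arrays (median SD 0.53, n = 4) than among the sham arrays (0.37, n = 3).

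The count of calls depended on how the runs entered the fit. Deviations from the group means at 48 h correlated by 0.46 on average between arrays of 1 run (10 pairs) and by −0.15 between arrays of different runs (30 pairs). These pairs included iTBS arrays. Deviations from a group's own mean cancel within that group, so positive correlations within runs force negative ones between runs. The −0.15 is therefore not a separate observation. Between sham and 1 Hz arrays the correlations were 0.06 in run A, 0.35 in run C and 0.62 in run D. With each number run at each time as a block, limma called 0 probes, with 5133 at an unadjusted p under 0.05 and a lowest adjusted p of 0.146. That same fit called 1470 probes without sham replicate 2 and 408 without 1 Hz replicate 3, the arrays of run C, but 2 without sham replicate 1, 1 without sham replicate 3 and 0 without 1 Hz replicate 1, 2 or 4. These fits with an array left out were chosen after the data were seen.

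Across the 13888 genes that could be named, 1 probe each, 8411 (60.6%) had a higher mean after 1 Hz and the median difference was 0.06. Without 1 Hz replicate 1 the median was 0.00 and 6922 genes were lower.

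The 3 runs that held both groups gave 3 separate differences of 1 Hz minus sham, with no array in common. They had little in common across genes. Over the 13888 genes the correlation of the differences was −0.08 between runs A and C, −0.11 between A and D and 0.03 between C and D. The points of each correlation share the array platform, and each difference rests on 1 array per group. The standard deviation of the differences was 1.01 in run A, 0.42 in run C and 0.47 in run D, and the share of genes differing by more than 1 was 29.4%, 3.77% and 4.22%. The difference had the same sign in all 3 runs for 2890 genes (20.8%), of which 2025 were higher and 865 lower. Unrelated differences would also share a sign for part of the genes, so this share does not by itself show agreement between runs. The genes lower within runs A, C and D numbered 4769, 6921 and 7332, with medians of 0.32, 0.00 and −0.02 over all genes. Higher genes were thus in clear excess in run A only.

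**Figure D3:**
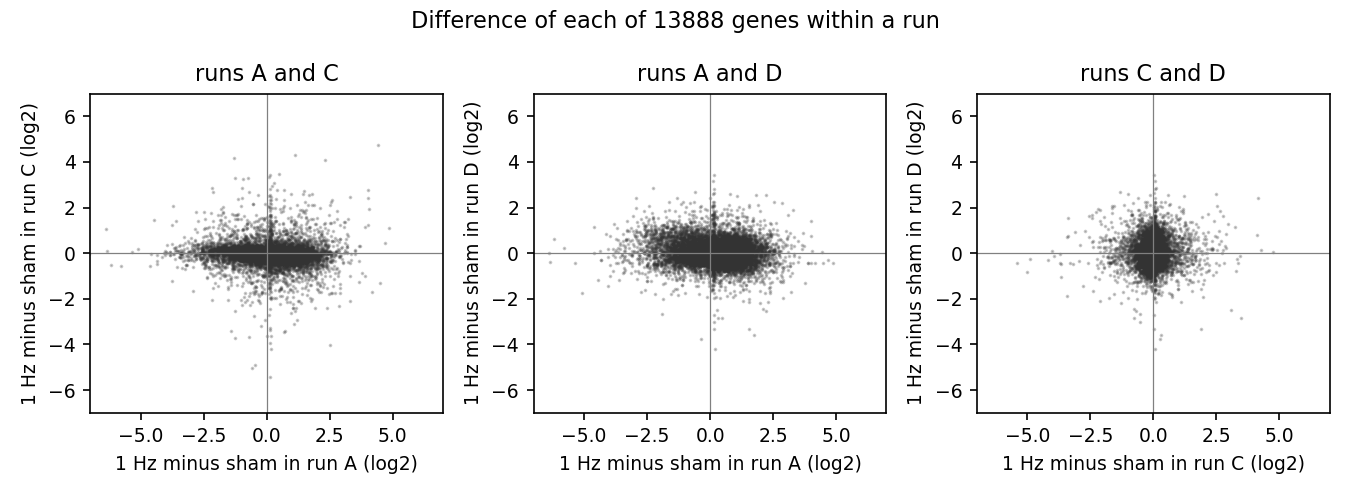
Difference of 1 Hz minus sham for each of 13888 genes within number runs A, C and D, plotted pairwise on log2 axes. Each point is a gene and each axis a single pair of arrays; the cloud is wide along run A (SD 1.01) and narrow along runs C (0.42) and D (0.47), with correlations of −0.08, −0.11 and 0.03.

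Although no gene passed the test, some had all 4 of their 1 Hz arrays on one side of all 3 sham arrays. This held for 423 of the 35694 probes (1.19%), 248 higher (0.695%) and 175 lower (0.49%). Among the 11371 named genes that were well above background on all 7 arrays it held for 57 (0.501%), 29 higher (0.255%) and 28 lower (0.246%). The 10 with the largest difference in each direction are described below, and none is a call.

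Among the 10 higher genes were regulators of transcription and RNA processing. Tcea1, the elongation factor TFIIS that rescues stalled RNA polymerase, lay at 5.81, 5.75 and 5.43 in the sham arrays and at 6.11, 5.85, 6.05 and 6.25 in the 1 Hz arrays. The means differed by 0.40 (95% interval 0.02 to 0.79), and by 0.39 without 1 Hz replicate 1, but the 3 probes of this gene disagreed, with differences from −0.10 to 0.43. Kdm4a, a histone lysine demethylase, lay at 4.48, 4.59 and 4.52 under sham and at 5.13, 4.80, 4.92 and 4.76 under 1 Hz. Its difference was 0.38 (0.01 to 0.74), and the smallest gap between the groups was that of 1 Hz replicate 4 over sham replicate 2. Rbm17, a splicing factor, lay at 6.41, 6.37 and 6.37 under sham and at 7.18, 6.46, 6.51 and 6.80 under 1 Hz, a difference of 0.36 that was 0.21 without 1 Hz replicate 1.

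Eif2s3y, a Y-linked copy of the gamma subunit of translation initiation factor eIF2 with a close relative on the X chromosome, lay at 2.47, 3.17 and 2.88 under sham and at 4.03, 3.24, 3.19 and 3.19 under 1 Hz. The difference of 0.57 (0.02 to 1.12) shrank to 0.37 without 1 Hz replicate 1, and within run C the arrays were 0.02 apart. Ifngr2, the signalling chain of the interferon gamma receptor, lay at 5.03, 5.17 and 4.998 under sham and 5.79, 5.24, 5.20 and 5.39 under 1 Hz, 0.34 apart in the mean and 0.21 without 1 Hz replicate 1. Pcdhga5, a gamma protocadherin of neuronal cell contacts, lay at −0.93, −1.22 and −1.50 under sham and −0.04, −0.82, −0.64 and −0.73 under 1 Hz, a difference of 0.66 (−0.05 to 1.37). Within runs A, C and D it differed by 0.89, 0.58 and 0.77.

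Several of the remaining higher genes leaned on 1 array. Ms4a8, of the membrane-spanning MS4A family, differed by 0.87 and Tcp11, a gene known from sperm, by 0.79, with 1 Hz replicate 1 far above the other 3 arrays in both. Their differences were 0.51 and 0.47 without it. Chmp1b2, of the ESCRT-III membrane scission family, differed by 0.41 and the homeobox gene Nkx2-6 by 0.36. For 8 of the 10 higher genes, 1 Hz replicate 1 was the highest of the 4 arrays.

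On the lower side, Hcn2 showed the largest difference. It encodes a hyperpolarization-activated channel that carries the pacemaker current of neurons. Its levels were 1.01, 0.27 and 0.28 under sham and −0.90, −0.32, −0.16 and −0.54 under 1 Hz. The difference was −1.004 (95% interval −2.03 to 0.02) and −0.87 without 1 Hz replicate 1, with −1.91, −0.44 and −0.82 within runs A, C and D. Every 1 Hz array lay below every sham array, yet the interval of the fit without runs included 0. With each run at each time as a block the difference was −1.01, with an adjusted p of 0.201 by limma.

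Madd and Dpysl5 are further genes of neurons. Madd, an exchange factor for the vesicle GTPase Rab3, lay at 5.23, 4.69 and 5.19 under sham and at 4.46, 4.66, 4.31 and 4.68 under 1 Hz, a difference of −0.51 (−0.97 to −0.05), and −0.49 without 1 Hz replicate 1. With the run block it was −0.56, with an adjusted p of 0.146 by limma. Dpysl5, a collapsin response mediator of growing axons, lay at 4.74, 4.52 and 4.88 under sham and at 4.10, 4.13, 4.19 and 4.50 under 1 Hz, a difference of −0.48. A second Dpysl5 probe differed by 0.16 in the opposite direction. In both genes sham replicate 2 was the lowest sham array and 1 Hz replicate 4, the highest stimulated one, lay just under it.

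Kpna6, an importin alpha that carries proteins into the nucleus, lay at 1.41, 1.40 and 1.60 under sham and at −1.11, 1.40, 0.96 and 1.07 under 1 Hz. Its difference of −0.89 (−1.55 to −0.23) became −0.33 without 1 Hz replicate 1. Cap1, which recycles actin monomers, lay at 3.72, 3.58 and 4.09 under sham and at 2.23, 3.52, 3.42 and 3.57 under 1 Hz, and its difference of −0.61 likewise became −0.29. In both genes the other 3 stimulated arrays sat close under the sham arrays. Trim58, a ubiquitin ligase of the tripartite motif family, differed by −0.66, Pknox2, a homeobox transcription factor, by −0.60, Micb by −0.67, Reep6 by −0.55 and LOC102549787 by −0.67. Of these 5, Reep6 and Micb had 95% intervals that included 0.

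**Figure D4:**
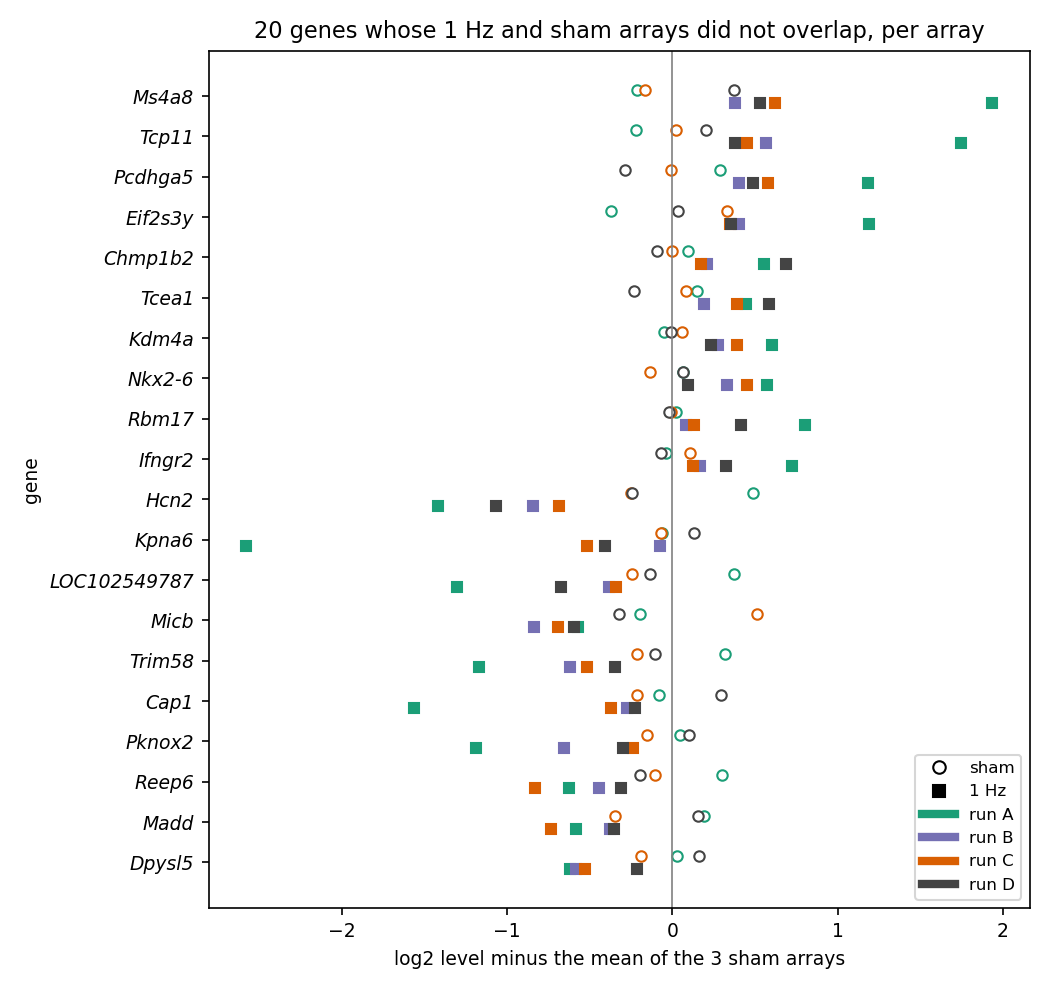
The 20 genes with the largest differences among those whose groups did not overlap. The horizontal axis is the log2 level of each array minus the mean of the 3 sham arrays; open circles are sham, filled squares are 1 Hz, and colours mark the number runs. For Hcn2 the 1 Hz arrays lie at −0.90, −0.32, −0.16 and −0.54 in level, all below the lowest sham array at 0.27, and for Kpna6 the run A array lies far from the other 3.

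The selection stops at a difference of 0.34 (Ifngr2) on the higher side, where the next gene, Ramac, had 0.31, and at −0.48 (Dpysl5) on the lower side, where Csf2ra had −0.42. The cultures harvested 24 h after 1 Hz were measured on other arrays. These were 3 of 1 Hz in runs A, C and D and 3 of sham in runs B, C and D. The groups at 24 h thus differed in run as well as in treatment. At 24 h, 4 of the 10 higher genes were also higher than sham and 5 of the 10 lower genes were also lower. Hcn2 differed by −0.34 at 24 h, Tcea1 by 0.21, Madd by 0.22 and Kpna6 by 0.00. The iTBS cultures at 48 h were compared with the same 3 sham arrays, and there Hcn2 differed by −0.24, Tcea1 by 0.09, Madd by −0.27 and Kpna6 by −0.17.

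The difference between the change at 48 h and that at 24 h was tested for every probe, in the fit that does not use the runs. Of 35694 probes 0 (0.0%) passed in limma, with 863 (2.42%) at an unadjusted p under 0.05. In the direct comparison of 1 Hz with iTBS at 48 h, 0 (0.0%) passed and 1195 (3.35%) had an unadjusted p under 0.05.

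Genes of neuronal signalling were examined as gene lists. In all, 353 of the 373 genes on the 14 lists were tested, 0 passed, and 3 (0.850%) had an unadjusted p under 0.05, against 0.907% of all named genes. The 3 were Dlgap3, Adam10 and Grik3.

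The activity-regulated genes showed no common direction 48 h after 1 Hz. Of 31 genes 16 were higher and 15 lower, with a median of 0.00. Fos, the AP-1 subunit, lay at −0.63, 1.13 and 2.78 in the sham arrays and at 1.61, −0.63, 1.44 and 3.05 in the 1 Hz arrays, 0.27 apart (95% interval −2.27 to 2.82). Arc, which drives internalisation of AMPA receptors, lay at 4.86, 2.73 and 3.13 under sham and at 5.91, 4.37, 2.61 and 2.80 under 1 Hz, 0.35 apart (−1.86 to 2.55). The groups overlapped for both genes, and within runs A, C and D the arrays differed by 2.24, 0.31 and 0.28 for Fos and by 1.05, −0.12 and −0.33 for Arc. Fos was thus higher in each of the 3 runs, and with the run block its difference was 0.98, with an adjusted p of 0.191 by limma.

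Egr1, a zinc finger immediate early factor, had the largest difference of the list, at −1.30 (−3.38 to 0.78). It lay at 1.48, 2.63 and 4.58 under sham and at −1.11, 0.74, 3.09 and 3.65 under 1 Hz. Without 1 Hz replicate 1 the difference was −0.40, and within run C it was 0.47. Sik1, a salt-inducible kinase, differed by −0.76, but its 1 Hz replicates 2, 3 and 4 lay at 1.56, 1.55 and 1.58 against −0.82 for replicate 1, and the difference was −0.16 without it. Npas4, an activity-dependent transcription factor, was well above background on 2 of 3 sham and 2 of 4 1 Hz arrays and differed by −0.58 (−3.14 to 1.97). Bdnf, the neurotrophin, differed by 0.29, or 0.06 without 1 Hz replicate 1, and Dusp1, a MAP kinase phosphatase, by −0.40.

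Among the 14 pathway lists, the median of the presynaptic release machinery lay furthest from that of all named genes. Of 26 genes 23 (88.5%) were lower after 1 Hz, against 39.4% of all named genes, and the median difference was −0.14 against 0.06. Without 1 Hz replicate 1, 20 of 26 were lower with a median of −0.13, against a median of 0.00 over all genes. The medians within runs A, C and D were −0.39, −0.10 and −0.03, against 0.32, 0.00 and −0.02 over all named genes. The run D median was thus near that of all genes. With the run block 19 of 26 were lower, against 5445 of 13888 named genes. Within runs A, C and D the lower genes numbered 17, 15 and 16. In all 3 runs 6 genes (23.1%) were lower, against 6.23% of all genes. Leaving out 1 array at a time moved the median between −0.27, without 1 Hz replicate 4, and −0.11, without sham replicate 1, and it was −0.22 without sham replicate 2. None of the 26 passed the test. None had groups that did not overlap, against 0.965% of all named genes. At 24 h, on other arrays, 11 of 26 were lower with a median of 0.02. For the iTBS cultures against the same sham arrays 14 of 26 were lower with a median of −0.04.

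Cplx1, a complexin that clamps vesicle fusion, led this list. It lay at 3.71, 2.80 and 3.44 under sham and at 2.26, 2.85, 2.54 and 2.92 under 1 Hz, a difference of −0.67 (−1.46 to 0.12), with −1.45, −0.26 and −0.52 within runs. Its groups overlapped through sham replicate 2 only. Syp, the vesicle protein synaptophysin, lay at 2.90, 1.88 and 2.73 under sham and at 1.12, 2.22, 1.90 and 2.24 under 1 Hz, a difference of −0.63 that was −0.39 without 1 Hz replicate 1 and 0.02 within run C. Rab3a, the vesicle GTPase, lay at 5.01, 4.61 and 4.99 under sham and at 4.41, 4.62, 4.53 and 4.36 under 1 Hz, a difference of −0.39 (−1.20 to 0.43). For all 3 genes sham replicate 2 was the lowest sham array and overlapped the stimulated cultures.

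Slc17a7, the vesicular glutamate transporter VGLUT1 that fills vesicles in excitatory hippocampal neurons, lay at 0.94, 0.15 and 0.52 under sham and at −0.41, 0.19, −0.39 and 0.46 under 1 Hz, a difference of −0.57 (−1.36 to 0.22). Its relative Slc17a6 (VGLUT2) was almost level, at 0.03 (−0.42 to 0.47). Slc17a6 and Syn2, a synapsin of the vesicle surface (0.06), were among the 3 genes with a higher mean. The markers of excitatory neurons were lower for 4 of 6 genes with a median of −0.19, and for 5 of 6 without 1 Hz replicate 1, with a median of −0.13. The general neuronal markers were lower for 5 of 8 genes with a median of −0.09, and Map2 differed by −0.59 but by −0.12 without 1 Hz replicate 1. Whether neuron content had a part in the presynaptic values was not tested.

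GABA genes differed less once 1 Hz replicate 1 was left out. Of 25 GABA genes 17 were lower, with a median of −0.08, but 12 of 25 without 1 Hz replicate 1, with a median of 0.01. With the run block 17 of 25 were lower, with a median of −0.16. Slc32a1, the vesicular GABA transporter, changed little without 1 Hz replicate 1. It lay at −0.48, −1.33 and −0.26 under sham and at −1.71, −1.09, −1.90 and −1.17 under 1 Hz, a difference of −0.78 (−2.15 to 0.60) that was −0.70 without 1 Hz replicate 1 and −1.22, −0.57 and −0.91 within runs. The enzymes that make GABA did not follow it, since Gad1 differed by −0.08 and Gad2 by 0.09. Gabra3, a GABA-A receptor subunit, differed by −0.69, but by −0.22 without 1 Hz replicate 1. Gabrd, the extrasynaptic delta subunit, lay at 2.18, 2.71 and 2.64 under sham and at 3.04, 2.42, 2.46 and 2.52 under 1 Hz, 0.10 apart, and −0.04 without 1 Hz replicate 1. Gabarapl2, of the receptor trafficking and autophagy family, differed by −0.10.

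Of 32 glutamate receptors and partners 18 were lower, with a median of −0.10, and −0.02 without 1 Hz replicate 1. Grin2d, an NMDA receptor subunit, lay at 8.39, 7.55 and 7.67 under sham and at 5.66, 8.16, 7.65 and 7.81 under 1 Hz. Its difference of −0.55 was 0.00 without 1 Hz replicate 1. Grik2, a kainate receptor subunit, gave the same pattern, at −0.54 with and 0.01 without that array. Gria1, the AMPA receptor subunit, differed by −0.34 and −0.13.

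In the postsynaptic density and calcium/calmodulin kinase list, 15 of 25 genes were lower, with a median of −0.05, and 16 of 25 without 1 Hz replicate 1, with a median of −0.04. Dlgap3, a scaffold that links PSD-95 to Shank proteins, lay at 2.72, 1.73 and 1.88 under sham and at 0.74, 2.12, 1.19 and 1.05 under 1 Hz. The difference was −0.84 (−1.64 to −0.03), −0.66 without 1 Hz replicate 1, and −1.98, −0.53 and −0.84 within runs, while 1 Hz replicate 2, which had no sham array in its run, lay above sham replicates 2 and 3. Dlgap2 differed by −0.41 and Camk2b, a kinase of postsynaptic plasticity, by −0.31 (−0.73 to 0.12).

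**Figure D5:**
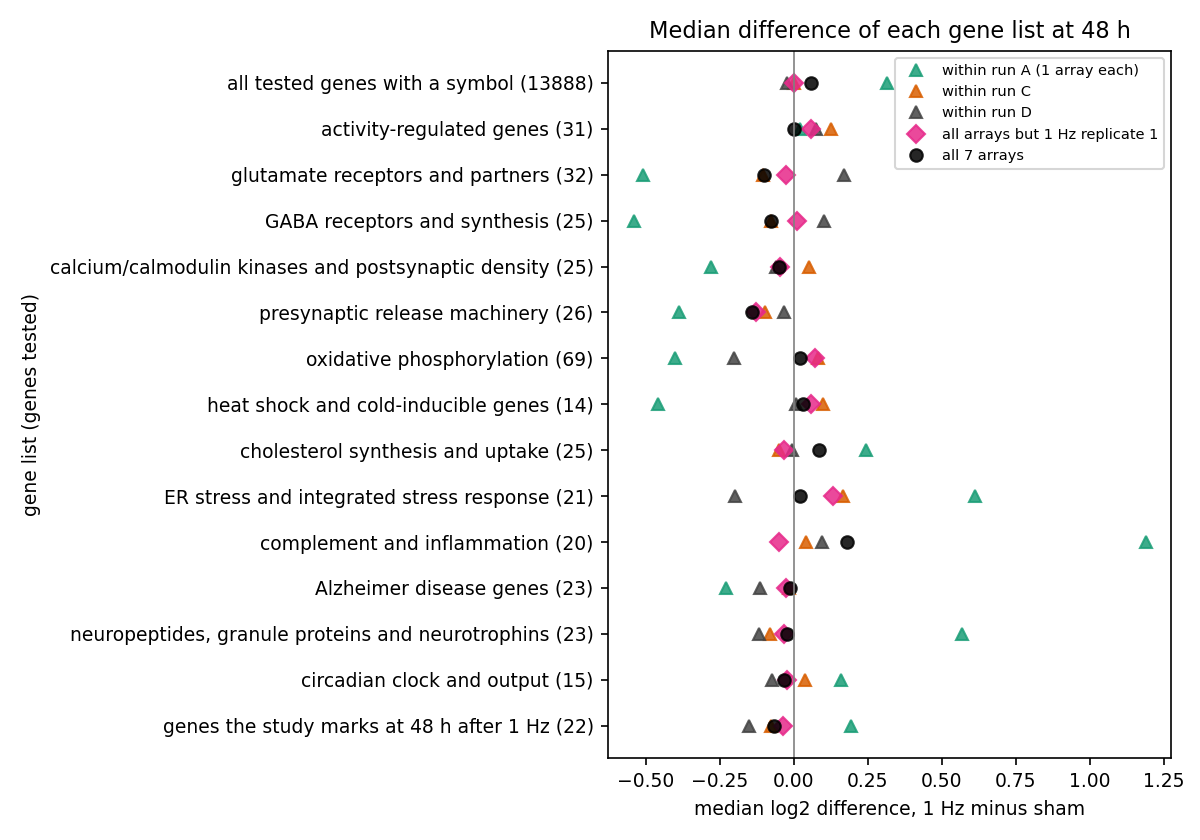
Median difference of the 14 gene lists and of all named genes. The horizontal axis is the median log2 difference of 1 Hz minus sham over the genes of a list; black circles use all 7 arrays, diamonds leave out 1 Hz replicate 1, and triangles are the pairs of arrays within runs A, C and D. Run A spreads from −0.54 (GABA genes) to 1.19 (complement and inflammation), while the black circles lie between −0.14 (presynaptic release machinery) and 0.18.

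Energy metabolism and stress programmes had no stable direction. Of 69 oxidative phosphorylation genes 31 were lower and 38 higher, with a median of 0.02. The count of lower genes was 13 without 1 Hz replicate 1, 50 without 1 Hz replicate 2, and 46, 11 and 59 within runs A, C and D, with medians of −0.40, 0.08 and −0.20 there. When each number run at each time was fitted as a block, 56 of 69 were lower and the median was −0.14. Complex IV had a median of −0.09 over 10 genes and complex I of 0.04 over 33. Ndufs4, a complex I subunit, had the largest difference of the list at 0.51, and −0.06 without 1 Hz replicate 1. In the ER stress and integrated stress response list 11 of 21 genes were higher, with a median of 0.02. The count was 18 of 21 without 1 Hz replicate 1 (0.13) and 15 of 21 with the run block (0.21). This list had medians of 0.61, 0.17 and −0.20 within runs A, C and D, with 6, 2 and 17 genes lower. The largest differences were those of Sesn2, a stress-induced regulator of mTORC1, at −0.73 and of Pdia4, a disulfide isomerase, at −0.48. Both were nearer 0 without 1 Hz replicate 1, at −0.18 and −0.01. Cholesterol genes were higher for 16 of 25 (64.0%, against 60.6% of all genes), but 11 of 25 were without 1 Hz replicate 1, and Stard4, a sterol carrier, differed by 0.34, or 0.12 without that array.

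Complement and inflammation genes were higher for 14 of 20, with a median of 0.18, but only 8 of the 20 were well above background on all 7 arrays. Without 1 Hz replicate 1 the median was −0.05 and 11 were lower. With the run block 18 of 20 were higher, with a median of 0.38, against 8443 of 13888 named genes. The medians within runs A, C and D were 1.19, 0.04 and 0.09, with 2, 8 and 7 genes lower. In all 3 runs 7 genes (35.0%) were higher, against 14.6% of all genes. C1r, a protease of the classical complement pathway, lay at 0.89, 3.36 and 3.26 under sham and at 2.27, 2.74, 3.29 and 3.27 under 1 Hz. The lone low value was sham replicate 1, and within runs C and D the arrays were −0.06 and 0.02 apart. C1s, the partner protease, differed by 0.33. The differences were 0.60 for C1r and 0.55 for C1s without 1 Hz replicate 1. C5ar1, the receptor for the complement fragment C5a, was the only list gene whose groups did not overlap, against 134 of 13888 named genes (0.965%). C5ar1 was, however, well above background on 0 of 3 sham and 1 of 4 1 Hz arrays. The microglial markers were lower for 6 of 8 genes with a median of −0.07, which was −0.29 without 1 Hz replicate 1. Among them were P2ry12, a purinergic receptor, at −0.60, or −0.28 without that array, and Itgam, an integrin chain, at −0.12. Their part in the complement values was not tested.

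Genes linked to Alzheimer disease split evenly, with 12 of 23 lower and a median of −0.01. Apoe, the lipid carrier made by astrocytes, lay at 11.21, 11.09 and 11.48 under sham and at 9.57, 11.78, 11.32 and 10.70 under 1 Hz. The mean difference was −0.42 (−1.12 to 0.29), the groups overlapped, and without 1 Hz replicate 1 it was 0.01. Adam10 and Bace1, the alpha- and beta-secretases that cleave the amyloid precursor, differed by −0.71 and −0.63. Both rested on the same array, where Adam10 lay at −0.64 against 1.60, 1.54 and 2.25 on the other 1 Hz arrays, and Bace1 at −2.11 against 0.07, 0.07 and 0.19. Without it the differences were −0.10 and −0.07. Psen2, of the gamma-secretase complex, differed by 0.02 (−0.37 to 0.40).

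A further list held those genes that the study picked out for display and marked for this comparison, which are a small selection from its results. As these were chosen on these samples, they are not independent evidence of direction. Of the 22 tested here none passed in limma, while 13 were lower and 9 higher, and the median was −0.07. Atp2a2, the calcium pump of the endoplasmic reticulum, differed by −0.03 (−0.54 to 0.47).

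Peptide and neurotrophin genes were lower for 12 of 23, with a median of −0.02. Adcyap1, the neuropeptide PACAP, lay at 2.22, 1.63 and 2.64 under sham and at 0.63, 0.53, 1.02 and 3.35 under 1 Hz, a difference of −0.78 (−2.31 to 0.75). 1 Hz replicates 1, 2 and 3 lay below all sham arrays and the array of run D lay above them. Crh, the stress peptide corticotropin-releasing hormone, differed by 0.63, and Vip, an interneuron peptide, by 0.47.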

How the data were processed

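Total RNA was labelled with Cy3 and hybridised to Agilent rat 1-colour arrays of 62976 spots. The authors deposited scanner files with processed-signal intensity per spot (Feature Extraction 12.0.3.1, background-subtracted) and spot flags, and a table of z-scores, that is a score of log10 signal per array. Own z-scores matched the deposited scores on the 7 arrays within 0.005. The files name build rn4, and no coordinates were used.

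Control spots and outlier spots were left out, spots of a probe averaged, and log2 values standardised per array. Of 56 arrays 1, at 2 h after 1 Hz, failed the software's grid check and was not fitted. Probes without a value on some array (420) were dropped, and the 35694 well above background on at least 3 of the 55 fitted arrays were tested. Symbols came from RefSeq by accession for 21109 of 45598 probes, 46.3%, and 1 probe per gene, that with the highest mean over the 7 arrays, was used. limma 3.58.1 in R 4.3.3 fitted 55 arrays with 1 mean per group, so that all groups share the spread, and p-values were adjusted by Benjamini-Hochberg. Tables were made in Python 3.11.15. The comparison rests on 3 sham and 4 1 Hz arrays, and what limits its precision was not tested. The script was tested on simulated data. Alternatives covered scaling, background correction, filters, arrays fitted, blocks and leaving out each array.

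Genes named were those passing the main or run-block test (none did), the 10 largest differences in each direction among named genes well above background on all 7 arrays with groups apart, the 2 largest in each list among members well above background on all 7 arrays, overlapping or not, and 9 genes fixed by name, so 73 genes, of which 1 is not reported here, and further list members were described after their values were seen. The 7 arrays, the gene lists and the rules were chosen with earlier results of these data known. The normexp alternative, with an offset of 50, used median spot signals in place of mean ones.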

Additional observations from a re-analysis of the deposited data

Results flagged for a closer look

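For each gene named, the highest and the lowest of the 4 1 Hz arrays were set against the other 3, by the gap to the nearest array as a share of the group's range. Of 73 genes and 25 list medians tested, 14 genes and 1 list exceeded Dixon's critical value for 4 values. Chance flags about 1 in 20 groups that were not chosen by their values. Most of these genes were chosen by the size of their difference, which 1 far array can enlarge, so that rate does not apply to them. The far array was 1 Hz replicate 1 for Bace1 (0.949), Cap1 (0.890), Eif2s3y (0.938), Gabrd (0.841), Grik2 (0.939), Map2 (0.837), Ms4a8 (0.844), Ndufs4 (0.885), Prox1 (0.855), Sik1 (0.988) and Tcp11 (0.863). It was also the far array for the median level of the genes the study marks at 48 h after 1 Hz (0.860), where it lay at 5.36 against 5.55, 5.55 and 5.58. The run D array, 1 Hz replicate 4, was far for Sox10 (0.925) and Ugt8 (0.873), and the sham array of the same run was low for both. 1 Hz replicate 2 was far for Itgam (0.894). Over all 26090 probes well above background on the 7 arrays, 1589 (6.09%) exceeded the critical value, and 1 Hz replicate 1 was the far array in 56.9% of them, replicate 4 in 28.1%, replicate 3 in 4.97% and replicate 2 in the rest. Among array measures, the share of spots well above background was far on 1 Hz replicate 4 (0.939), at 81.1%. The sham group of 3 arrays was not examined in this way.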

How the results depend on the processing

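The count of 0 probes between 1 Hz and sham at 48 h held under 75th percentile scaling, quantile normalization, normexp, the deposited z-scores, both other filters, the 7 arrays alone, all 56 arrays, and the number run or slide as a block. With 1 array left out it ranged from 0 to 1, the 1 without sham replicate 1 (A_44_P1131093, −3.79, adjusted p 0.0137 by limma). The comparisons with 24 h and with iTBS also ranged from 0 to 1, the 1 without 1 Hz replicate 3 at 24 h and without iTBS replicate 4. With the number run at each time as a block the count was 0, but, in fits added after the data were seen, 1470 without sham replicate 2, 408 without 1 Hz replicate 3, 2 without sham replicate 1 and 1 without sham replicate 3, and the cause was not tested.

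Deviations of same-numbered sham and 1 Hz arrays correlated by 0.06, 0.01 and −0.31. The first of these pairs was also the pair of run A. The other values gave no sign of pairing by title replicate number. Deviations cancel within a group, however, so these values are not independent of those within runs. The replicate block called 0 probes, with 1751 at an unadjusted p under 0.05, and turned the direction of C1s (−0.057), Olig1 (0.060), Itgam (0.010), Atp2a2 (0.094), Psen2 (−0.045) and Fos (−0.37). normexp turned Itgam (0.046) and Psen2 (−0.048), and Psen2 was also turned by 75th percentile scaling (−0.00753) and quantile normalization (−0.047). The cause was not tested.

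With 1 array left out, differences ranged from −0.83 to 0.0042 for Grin2d, −0.74 to 0.0068 for Grik2, −0.061 to 0.75 for Ndufs4, −0.79 to 0.018 for Hspa8, −0.50 to 0.87 for Stard4, −0.41 to 0.82 for C1r, −0.40 to 1.01 for C1s, −0.73 to 0.0052 for Apoe and −0.11 to 1.09 for Vip. They ranged from −0.90 to 0.67 for Gfap, −0.69 to 2.28 for Sox10, −1.02 to 0.19 for Olig1, −0.66 to 1.40 for Ugt8, −0.44 to 0.056 for Itgam, −2.68 to 0.56 for Col1a1, −2.53 to 0.39 for Col1a2, −0.77 to 0.37 for Otx2, −0.17 to 1.32 for Ccnb1 and −0.46 to 1.22 for Aurkb. For genes named by symbol rather than size they ranged from −0.064 to 0.20 for Gabrd, −0.19 to 0.084 for Atp2a2, −0.14 to 0.16 for Psen2, −0.29 to 0.15 for Gabarapl2, −0.59 to 1.12 for Fos, −0.31 to 0.99 for Arc and −1.20 to 0.31 for Npas4. Of the list medians, that of heat shock genes moved beyond the array spread, to −0.13, with the number run at each time as a block. That spread is the standard deviation of a list's median level over the 1 Hz arrays, which includes differences between runs. Other medians could therefore change sign without a flag. That of oxidative phosphorylation went from 0.02 to −0.14 with the same block.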

Other observations

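Heat shock and cold-inducible genes were lower for 6 of 14, with a median of 0.03, and the chaperones Hsph1 and Hspa8 differed by −0.54 and −0.46, or by −0.16 and 0.02 without 1 Hz replicate 1. Circadian genes were lower for 8 of 15, with a median of −0.03, among them Bhlhe40, a clock-controlled repressor, at −0.62 and Clock, a core activator, at −0.51. These were −0.0038 and −0.28 without 1 Hz replicate 1. None of these genes passed the test.

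The remaining marker lists had medians of 0.01 for interneurons (4 of 8 lower), −0.04 for astrocytes (6 of 10), 0.23 for oligodendrocyte progenitors (1 of 5), 0.07 for myelinating cells (3 of 8), 0.04 for endothelial, mural and fibroblast cells (5 of 11) and −0.19 for choroid plexus (3 of 4). Without 1 Hz replicate 1 the median turned to 0.09 for astrocytes (3 of 10 lower), −0.05 for endothelial, mural and fibroblast cells (6 of 11) and 0.36 for choroid plexus (1 of 4), and it was 0.20 for myelinating cells. With each run at each time as a block it turned to −0.15 for oligodendrocyte progenitors (4 of 5 lower) and −0.03 for myelinating cells (5 of 8), and it was −0.24 for astrocytes (8 of 10). Prox1, a transcription factor of dentate granule cells, lay at 8.54, 7.58 and 8.08 under sham and at 6.54, 7.77, 7.78 and 7.98 under 1 Hz, a difference of −0.55 that was −0.22 without 1 Hz replicate 1.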
